A study of Mus musculus with 203 samples.

Results

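The 4 opioid receptor genes Oprm1, Oprd1, Oprk1 and Oprl1 were followed through single motor neurons of the mouse nucleus ambiguus (Amb), as 4 of the 24029 genes in the count table. They were chosen by name, as the genes of the mu, delta, kappa and nociceptin opioid receptors, and Oprl1 was set beside Pnoc, the gene of its peptide. The nucleus ambiguus is a column of cholinergic neurons in the medulla that holds both the parasympathetic neurons that slow the heart and the motor neurons of the larynx. The data are single-neuron transcriptomes made by Smart-seq2, a plate-based method that reads along the whole transcript. Tracer (fluorescent cholera toxin B) was placed in the pericardial space or in the cricothyroid muscle of the larynx of wild-type C57BL/6 pups of either sex (C57BL/6NCrl in the study's methods), and labelled neurons were aspirated from brainstem slices at postnatal day 2 to 4. All groups shared hypothermic anaesthesia for the injection, isoflurane before slicing and an injection of buprenorphine, itself an opioid drug, as analgesic. The heart and the larynx were injected in separate mice, through a thoracotomy or an incision over the larynx. In comparisons with laryngeal neurons, neuron type therefore cannot be told apart from mice and surgery. The deposited annotation assigned 53 neurons to the ambiguus cardiopulmonary type (ACP), 98 to the ambiguus cardiovascular type (ACV) and 52 to the laryngeal type (Larynx). The study asked how the heart-projecting Amb neurons divide into molecular types, and the receptor genes bear on which neuromodulators each type could respond to.

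Opioid receptors are G protein-coupled receptors of the inhibitory Gi/o class. When occupied they lower cyclic AMP, open inwardly rectifying potassium channels and close presynaptic calcium channels, which quiets a neuron. The mu receptor is the main target of morphine-like drugs, the delta receptor binds enkephalins, the kappa receptor binds dynorphins, and the nociceptin receptor binds nociceptin but has low affinity for the classical opioid peptides. In the medulla, opioids are known for depressing breathing and for changing vagal outflow to the heart.

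Several neurons came from each mouse and the labels do not tie a neuron to a mouse, so each neuron type counts as 1 sample. No test across animals was possible, and values are given as descriptions with their spread over neurons. A level below is the number of reads (counts of the deposited table) of a gene per 10000 counts outside Rn45s, the ribosomal RNA precursor gene. Shares carry exact Clopper-Pearson 95% intervals and summed reads exact Poisson intervals, and as reads were not tagged by molecule, these intervals cover counting error only. Median counts outside Rn45s were 1115375 in ACP and 1120512 in ACV neurons but 560892 in laryngeal neurons, over a range of 118492 to 2396541. The Oprl1, Oprm1 and Oprk1 shares are therefore also given after every neuron was thinned to 446628 counts. This kept 52 ACP, 94 ACV and 36 laryngeal neurons. Shares of the other genes are given in the text without thinning. The summed level of 5 motor neuron genes (Chat, Slc18a3, Slc5a7, Isl1 and Prph) had a median of 32.2 in ACP, 37.3 in ACV and 47.2 in laryngeal neurons, with reads in every neuron. The 4 marker genes of each type had a median summed level of 5.84, 5.62 and 21.5 in their own type, against at most 0.752, 0.0916 and 0.296 in the other two. They were Calb1, Pappa2, Trhr and Tacr3, then Bche, Hoxa5, Ghsr and Htr3b, then Calca, Calcb, Dlk1 and Uts2. The study reports them from these same neurons, so their levels are no independent check. Of the 4 laryngeal genes, it names Calca and Calcb as markers already known. Tacr3 was only 1.37-fold higher in ACP than in laryngeal neurons. Glial RNA was present, with a median of 961, 1077 and 555 counts of the glial gene Apoe, and a limit of 1800 Apoe counts, named in the methods as a filter, kept 42 ACP, 70 ACV and 52 laryngeal neurons of the deposited table.

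Oprl1 stood apart from the other receptor genes in all 3 types. It was read in 49 of 53 ACP neurons (92.5%, interval 81.8% to 97.9%), in 84 of 98 ACV neurons (85.7%, 77.2% to 91.96%) and in 44 of 52 laryngeal neurons (84.6%, 71.9% to 93.1%). After thinning the shares were 90.9%, 86.7% and 84.5%. The 3 counting intervals overlapped. Requiring at least 5 reads left 47, 78 and 42 neurons, so most detections did not rest on 1 or a few reads.

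In ACP neurons the Oprl1 level ran from 0 to 5.52 with a median of 2.17 and a mean of 2.08 ± 1.43 (SD, n = 53 neurons). In ACV neurons it ran from 0 to 17.98 with a median of 1.27 and a mean of 1.64 ± 2.12 (SD, n = 98). In laryngeal neurons it ran from 0 to 5.18 with a median of 1.31 and a mean of 1.52 ± 1.39 (SD, n = 52). The 3 distributions overlapped over almost their whole length, and 1 ACV neuron with 1521 Oprl1 reads stood above the rest, the next at 5.55. The mean level in ACP neurons was higher than in ACV neurons by 0.35 and than in laryngeal neurons by 0.46 on the log2 scale, and ACV and laryngeal neurons were 0.11 apart. Each difference between means was smaller than 1 SD over neurons, and the order of ACV and laryngeal neurons turned in neurons with at most 900 Apoe counts (-0.12).

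Among the genes with a read in each type, ordered by mean level, Oprl1 was number 943 of 17129 in ACP, number 1288 of 17859 in ACV and number 1418 of 17229 in laryngeal neurons. This order is not corrected for gene length, and it put Oprl1 above 91.8% to 94.5% of those genes. Neurons without an Oprl1 read were 4 ACP, 14 ACV and 8 laryngeal neurons. In ACV most of these were among the shallower neurons. Oprl1 was read there in 46 of the 49 deeper and 38 of the 49 shallower neurons. The ACV neurons without an Oprl1 read had 313668 to 1430048 counts outside Rn45s. Most of them lay above the laryngeal median of 560892, and the part of depth was not tested. In ACP Oprl1 was read in 25 of 26 deeper and 24 of 27 shallower neurons, and in laryngeal neurons in 23 of 26 and 21 of 26.

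Oprm1, the mu receptor gene, was read in a minority of neurons and in a larger share of ACP neurons. It had reads in 18 of 53 ACP neurons (33.96%, 21.5% to 48.3%), in 12 of 98 ACV neurons (12.2%, 6.49% to 20.4%) and in 7 of 52 laryngeal neurons (13.5%, 5.59% to 25.8%). The ACP and ACV counting intervals did not overlap, and the laryngeal interval overlapped both, but neurons of 1 mouse are not independent and this is no test between the types. The shares became 32.9%, 8.76% and 10.4% after thinning, and at least 5 reads were present in 16 ACP, 4 ACV and 4 laryngeal neurons.

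The Oprm1 level in ACP neurons ran from 0 to 0.885 with a median of 0 and a mean of 0.0738 ± 0.166 (SD, n = 53). In ACV neurons it ran from 0 to 0.360 with a median of 0 and a mean of 0.00965 ± 0.0477 (SD, n = 98). In laryngeal neurons it ran from 0 to 2.64 with a median of 0 and a mean of 0.0708 ± 0.373 (SD, n = 52). The median was 0 in every type because most neurons had no read, and the types differed in how many neurons had reads and in how high those few were. Among neurons with reads, the median level was 0.138 in ACP, 0.0173 in ACV and 0.115 in laryngeal neurons. Summed over the type, Oprm1 had 549 reads in ACP (504 to 597) and 253 in laryngeal neurons (223 to 286), and the interval of the ACV sum was 126.04 to 174.9.

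The mean Oprm1 level was 7.65-fold higher in ACP than in ACV neurons (log2 2.94). A gene entered a comparison when at least 10% of one type's neurons had a read of it, and of the 13356 such genes 9.87% were at least 2-fold higher in ACP and 8.63% at least 2-fold higher in ACV. Of the 3 receptor genes past this filter, Oprm1 was at least 2-fold higher in ACP and none in ACV, and their median log2 ratio was 0.35 beside 0.00 for all genes tested. In neurons with at most 900 Apoe counts (26 ACP and 44 ACV) Oprm1 was read in 9 and 4 neurons and the log2 difference was 5.57. With at most 1800 Apoe counts it was read in 14 of 42 ACP and 8 of 70 ACV neurons, and the log2 difference was 3.03, close to that over all neurons. Summed microglial markers (C1qa, C1qb, C1qc and Cx3cr1) were also unequal between the types, all 4 at least 2-fold higher in ACV, with mean sums of 0.566 in ACP and 2.94 in ACV (ranges 0 to 6.48 and 0 to 50.9), and their part in the Oprm1 difference was not tested.

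The laryngeal mean of Oprm1 rested on 1 neuron. That neuron held 79.8% of the 253 laryngeal reads, and it was also the laryngeal neuron with the highest Oprl1 level. The mean level of ACP over laryngeal neurons was 0.06 on the log2 scale with it. It was 1.51 when the highest neuron of each type was left out. For ACV over laryngeal neurons the value was -2.88, and -1.76 without the highest neuron of each type. In ACP, by contrast, the highest neuron held 92 reads, 16.8% of the total. For ACP against laryngeal neurons, 10.3% of 13256 genes were at least 2-fold higher in ACP and 12.5% in laryngeal neurons. None of the 3 receptor genes past the filter reached 2-fold in this pair. For ACV against laryngeal neurons, 10.4% of 13297 genes were at least 2-fold higher in ACV and 14% in laryngeal neurons, and of the 3 receptor genes none was higher in ACV and 2, Oprm1 and Oprk1, were higher in laryngeal neurons. Laryngeal neurons had more of their counts on Rn45s, and with totals that hold it the numbers of genes past 2-fold turned from 1369 and 1653 to 3399 in ACP and 695 in laryngeal neurons, and from 1382 and 1858 to 3281 in ACV and 955 in laryngeal neurons. Oprm1 was then the 1 receptor gene past 2-fold, in ACV over laryngeal neurons (-2.22), and the median of all genes lay at 0.58 and 0.52 in the 2 pairs.

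Within ACP, Oprm1 was read in 14 of the 26 deeper and 4 of the 27 shallower neurons. In ACV the counts were 7 of 49 and 5 of 49, and in laryngeal neurons 3 of 26 and 4 of 26. The ACP share was 32.9% after thinning, and the part of depth in the ACP split was not tested. A neuron without a read is not shown to lack the transcript. Oprm1 lies on chromosome 10 from 6758506 to 7038198 on the forward strand (GRCm38), and its exons overlap those of Ipcef1 on the other strand. The strand setting of the counting is not given in the sources used here, so reads of the pair are uncertain. Ipcef1 was read in 11 ACP, 15 ACV and 5 laryngeal neurons, and 9 of the 37 neurons with Oprm1 also had Ipcef1. The mean level of Ipcef1 was 0.0194 in ACP, 0.0124 in ACV and 0.0306 in laryngeal neurons.

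Oprk1, the kappa receptor gene, had its largest share in laryngeal neurons when all neurons were counted. It was read in 9 of 53 ACP neurons (16.98%, 8.07% to 29.8%), in 9 of 98 ACV neurons (9.18%, 4.29% to 16.7%) and in 13 of 52 laryngeal neurons (25%, 14.03% to 38.9%). All 3 counting intervals overlapped. Thinned to 1 total the shares were 13.3%, 8.40% and 29.6%, and 5, 6 and 8 neurons had at least 5 reads. With at most 900 Apoe counts the ACP share was the largest. Oprk1 was then read in 6 of 26 ACP (23.1%), 4 of 44 ACV (9.09%) and 8 of 38 laryngeal neurons (21.1%).

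The Oprk1 level in ACP neurons ran from 0 to 0.980 with a median of 0 and a mean of 0.0547 ± 0.1998 (SD, n = 53). In ACV neurons it ran from 0 to 2.28 with a median of 0 and a mean of 0.0504 ± 0.283 (SD, n = 98). In laryngeal neurons it ran from 0 to 1.82 with a median of 0 and a mean of 0.108 ± 0.341 (SD, n = 52). A few neurons carried most of the Oprk1 reads in each type, and the SD exceeded the mean 3.15-fold or more. Summed reads were 365 (329 to 404) in ACP, 532 (488 to 579) in ACV and 412 (373 to 454) in laryngeal neurons.

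The mean Oprk1 level differed by 0.12 on the log2 scale between ACP and ACV neurons. It was -0.99 for ACP over laryngeal and -1.10 for ACV over laryngeal neurons, the last just past 2-fold. In neurons with at most 900 Apoe counts the values were 0.93, 1.22 and 0.29, so both comparisons with laryngeal neurons turned direction. No order of the 3 types in Oprk1 level therefore held over both sets of neurons. Oprk1 lies on chromosome 1 from 5588466 to 5606131 on the forward strand, with no exon shared with another annotated gene.

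Oprd1, the delta receptor gene, was close to the limit of detection. It was read in 2 ACP (3.77%, 0.460% to 12.98%), 2 ACV (2.04%, 0.248% to 7.18%) and 2 laryngeal neurons (3.85%, 0.469% to 13.2%). The reads numbered 44, 20 and 5, and the highest level was 0.201 in ACP, 0.235 in ACV and 0.0655 in laryngeal neurons. No laryngeal neuron had 5 reads. Oprd1 did not pass the filter of reads in 10% of neurons in any type, and no fold between types is given for it. It lies on chromosome 4 from 132110726 to 132144486 on the reverse strand.

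**Figure D1:**
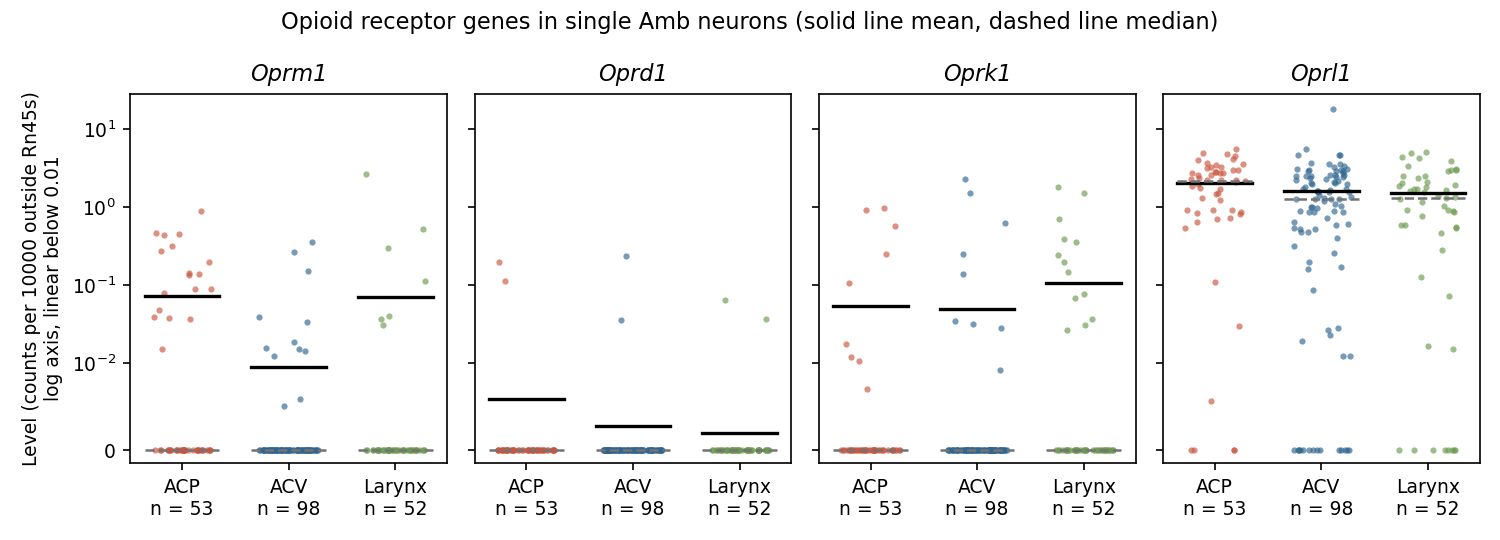
Level of each opioid receptor gene in single neurons (vertical axis, counts per 10000 outside Rn45s, logarithmic above 0.01 and linear below), by neuron type, with 1 point per neuron, the mean as a solid line and the median as a dashed line. Oprl1 is above 0 in most neurons of all types, while Oprm1, Oprd1 and Oprk1 lie at 0 in most neurons and the high laryngeal Oprm1 point at 2.64 stands alone.

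**Figure D2:**
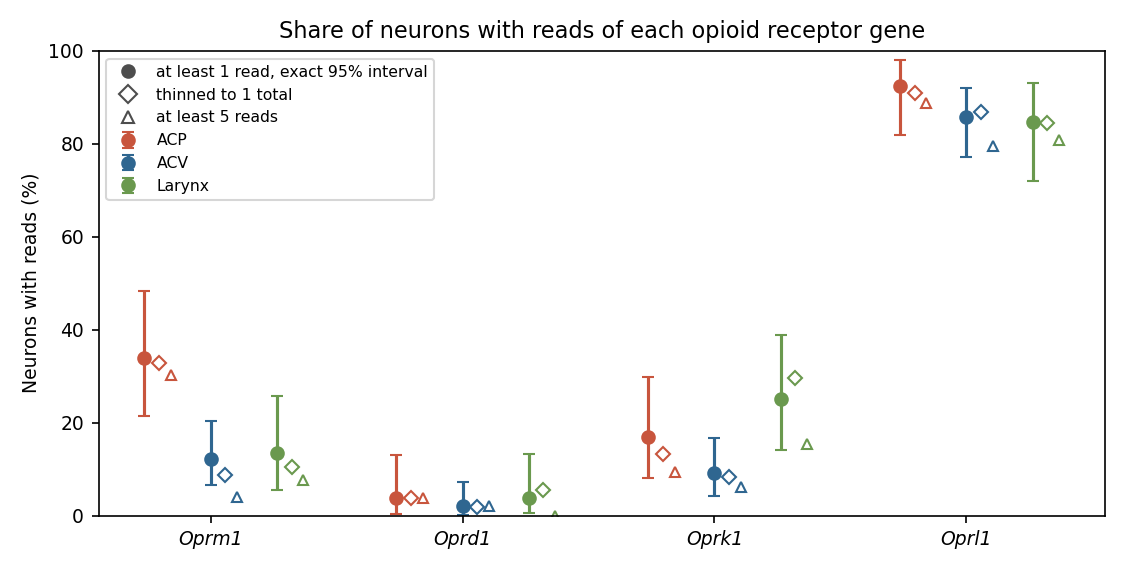
Share of neurons with reads of each receptor gene (vertical axis, percent) in ACP, ACV and laryngeal neurons, with filled points and exact 95% intervals for at least 1 read, diamonds for neurons thinned to 1 total and triangles for at least 5 reads. By the filled points Oprl1 lies at 84.6% or above in all types, and Oprm1 is at 33.96% in ACP and 12.2% in ACV. The intervals cover counting error only. With at least 5 reads Oprl1 is at 79.6% in ACV and 80.8% in laryngeal neurons.

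Levels of different genes were compared per kb of exon, since longer transcripts give more reads in this method. The mean Oprl1 level per kb was 0.554 in ACP, 0.436 in ACV and 0.404 in laryngeal neurons. That of Oprm1 was 0.00919, 0.00120 and 0.00881. That of Oprk1 was 0.00597, 0.00551 and 0.0118. Oprl1 thus exceeded Oprm1 per kb 60.3-fold in ACP, 363-fold in ACV and 45.8-fold in laryngeal neurons, and it exceeded Oprk1 92.8-fold, 79.2-fold and 34.1-fold. With the median length of the coding transcripts in place of all exons, the excess over Oprm1 was 20.3-fold, 122.2-fold and 15.4-fold, and over Oprk1 45.4-fold, 38.7-fold and 16.7-fold. The order of Oprl1 above the others was the same with both lengths, and the size of the excess depended on the length used.

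Read by neuron, Oprl1 was mostly the lone receptor gene. It was the only 1 of the 4 with reads in 26 ACP, 62 ACV and 27 laryngeal neurons, 56.7% of all neurons. Reads of Oprm1, Oprd1 or Oprk1 were present in 24 ACP neurons (45.3%, 31.6% to 59.6%), 22 ACV neurons (22.4%, 14.6% to 31.99%) and 18 laryngeal neurons (34.6%, 21.97% to 49.1%). Nearly all of these had Oprl1 as well. Oprl1 was read in 36 of 37 neurons with Oprm1, in 30 of 31 with Oprk1 and in 6 of 6 with Oprd1, beside 87.2% of all neurons.

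The commonest pair was Oprl1 with Oprm1 in ACP (13 neurons, 24.5%) and in ACV (11 neurons, 11.2%), and Oprl1 with Oprk1 in laryngeal neurons (9 neurons, 17.3%). Oprm1 and Oprk1 were read together in 4 ACP, 1 ACV and 3 laryngeal neurons. Reads of all 4 genes were found in 1 ACP and 1 laryngeal neuron. No receptor gene was read in 3 ACP, 14 ACV and 7 laryngeal neurons.

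**Figure D3:**
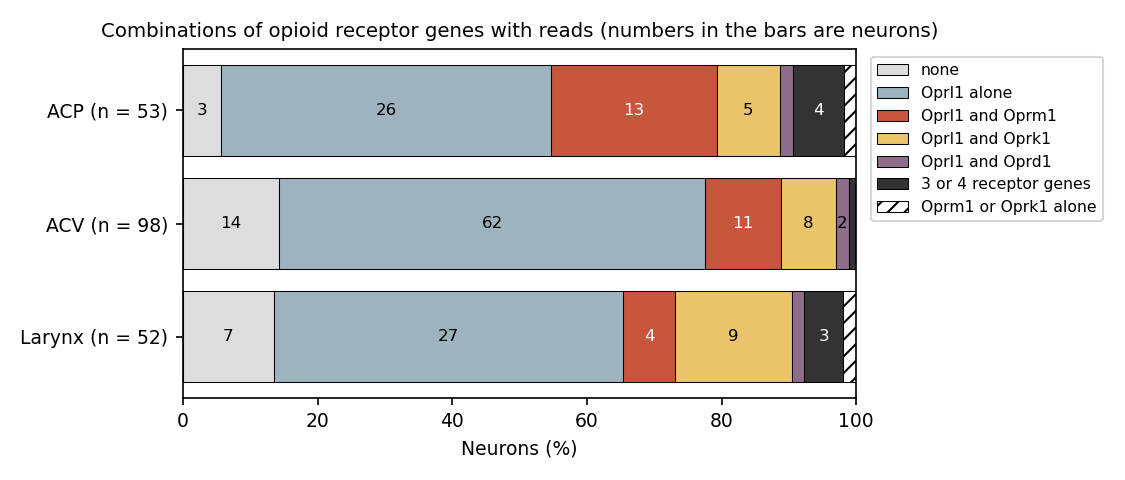
Share of neurons (horizontal axis, percent) of each type by the combination of opioid receptor genes with at least 1 read, with the number of neurons printed in each segment of 2 or more. Oprl1 alone fills the widest segment in all types, with 26, 62 and 27 neurons, and the segment of Oprl1 with Oprm1 is wider in ACP (13 of 53) than in laryngeal neurons (4 of 52).

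Pnoc, which encodes the nociceptin precursor, was uneven between types where its receptor gene was not, with reads in most laryngeal and fewer cardiac neurons. It was read in 14 of 53 ACP (26.4%, 15.3% to 40.3%), 37 of 98 ACV (37.8%, 28.2% to 48.1%) and 47 of 52 laryngeal neurons (90.4%, 78.97% to 96.8%). The Pnoc level ran from 0 to 2.37 in ACP neurons, with a median of 0 and a mean of 0.134 ± 0.457 (SD). In ACV neurons it ran from 0 to 5.91, with a median of 0 and a mean of 0.234 ± 0.743 (SD). In laryngeal neurons it ran from 0 to 11.9, with a median of 2.44 and a mean of 3.02 ± 2.96 (SD). On the log2 scale the mean level was -4.49 for ACP over laryngeal neurons, -3.69 for ACV over laryngeal and -0.81 for ACP over ACV.

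Set side by side, the Oprl1 mean varied by at most 0.46 on the log2 scale over the same 3 pairs of types. Per kb of exon, the mean Oprl1 level exceeded that of Pnoc 8.93-fold in ACP and 4.02-fold in ACV neurons and was 0.289 of it in laryngeal neurons. Both genes were read in the same neuron in 13 ACP (24.5%, 13.8% to 38.3%), 34 ACV (34.7%, 25.4% to 44.98%) and 40 laryngeal neurons (76.9%, 63.2% to 87.5%). Of the neurons with Pnoc, 92.9% in ACP, 91.9% in ACV and 85.1% in laryngeal also had Oprl1, each near the Oprl1 share of the whole type. Across all neurons of the 3 types the levels of Oprl1 and Pnoc had a Spearman correlation of -0.05, and within the types of 0.02, 0.09 and -0.08.

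Pnoc is also known in inhibitory interneurons, so their markers (Slc32a1, Slc6a5, Gad1 and Gad2) are given beside it. Their summed level had a mean of 0.963 in ACP, 0.769 in ACV and 1.91 in laryngeal neurons, with ranges of 0 to 17.9, 0 to 17.99 and 0 to 9.26. Of the 4 markers, 3 were at least 2-fold higher in laryngeal than in ACP neurons and 2 than in ACV neurons, and none was at 0 in any type. With totals that hold Rn45s, 1 was higher in laryngeal and 1 in ACP neurons in the first pair, and none reached 2-fold in the second. Reads of at least 1 of them were present in 42 of 53, 80 of 98 and 42 of 52 neurons. The part of such RNA in the Pnoc values was not tested. Pnoc lies on chromosome 14 from 65400673 to 65425472 on the reverse strand, and Oprl1 on chromosome 2 from 181715016 to 181720985 on the forward strand.

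Pdyn, the precursor gene of the kappa ligands, had the highest mean level of the 4 ligand genes in each type, before any correction for length. Per kb of exon its mean level was 0.201 in ACP, 0.552 in ACV and 2.26 in laryngeal neurons, beside 0.234, 0.233 and 0.403 for Penk and 0.0621, 0.108 and 1.40 for Pnoc, so Penk was above it in ACP with this length, though not with the median length of the coding transcripts (0.353 for Penk and 0.422 for Pdyn). It was read in 62.3% of ACP, 72.4% of ACV and 84.6% of laryngeal neurons. Its median level was 0.141, 0.501 and 2.11 and its mean 0.582 ± 0.918, 1.59 ± 2.62 and 6.52 ± 12.1 (SD). A single laryngeal neuron reached 63.04 and the next 55.5. The log2 ratio of mean levels was -1.45 for ACP over ACV, -3.49 for ACP over laryngeal and -2.03 for ACV over laryngeal neurons. Its receptor gene Oprk1 was read in far fewer neurons, and Pdyn was present in 8 of the 9 ACP, 8 of the 9 ACV and 12 of the 13 laryngeal neurons with Oprk1. Pnoc and Pdyn were read together in 43 of 52 laryngeal neurons.

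Penk, the precursor gene of the enkephalins, was read in 52.8% of ACP, 43.9% of ACV and 67.3% of laryngeal neurons. Its mean level was 0.382 ± 0.917, 0.381 ± 1.88 and 0.659 ± 1.36 (SD), and 1 ACV neuron held 63.004% of that type's Penk reads. No pair of types reached 2-fold in its mean over all neurons, but without the highest neuron of each type the means were 0.312, 0.198 and 0.548, and laryngeal neurons were then more than 2-fold above ACV neurons. Pomc, whose product holds beta-endorphin, was read in 32.1% of ACP, 28.6% of ACV and 11.5% of laryngeal neurons at mean levels of 0.0563, 0.0566 and 0.0410. Thus 1 of the 4 ligand genes, Pdyn, was at least 2-fold higher in ACV than in ACP, and Pnoc and Pdyn were the 2 past 2-fold in laryngeal neurons against each cardiac type. Of all genes tested, 8.63% were at least 2-fold higher in ACV than in ACP, 12.5% in laryngeal than in ACP and 14% in laryngeal than in ACV neurons. With totals that hold Rn45s, 1 ligand gene was also at least 2-fold higher in each cardiac type than in laryngeal neurons. The median log2 ratio of the 4 ligand genes was -0.41 for ACP over ACV, -2.13 for ACP over laryngeal and -1.41 for ACV over laryngeal neurons. At least 1 of Pnoc, Penk and Pdyn was read in 46 of 53 ACP, 84 of 98 ACV and 50 of 52 laryngeal neurons.

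**Figure D4:**
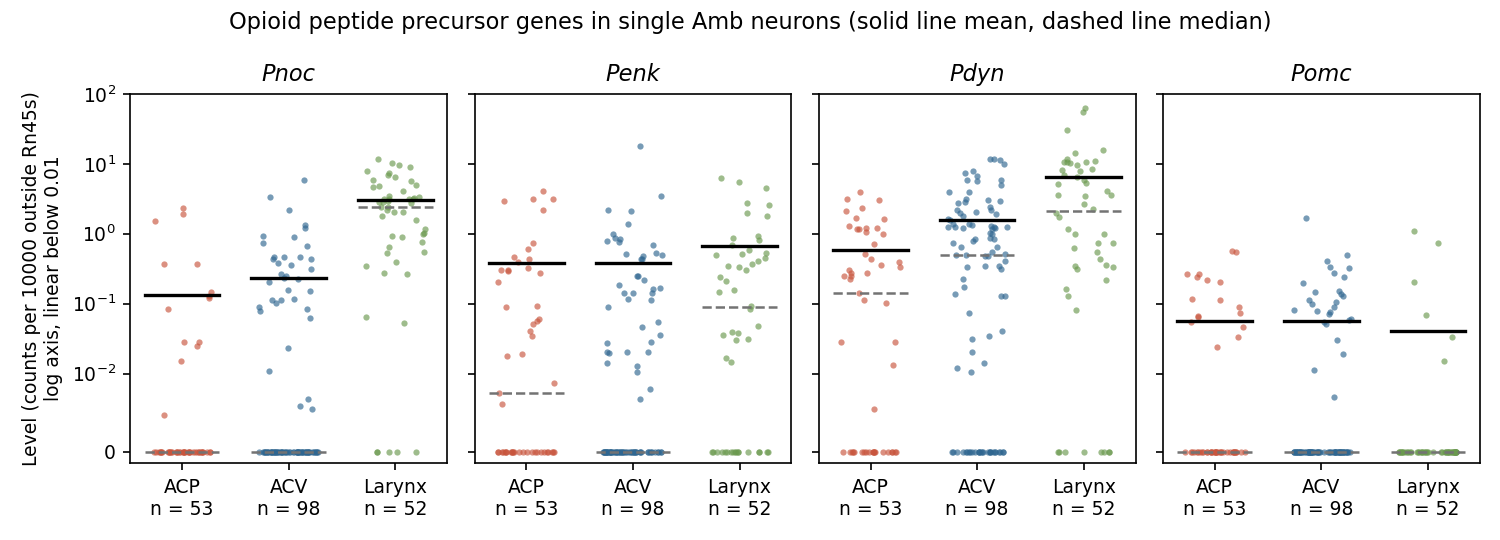
Level of the 4 opioid peptide precursor genes in single neurons (vertical axis, counts per 10000 outside Rn45s, logarithmic above 0.01 and linear below), by neuron type, with 1 point per neuron, the mean as a solid line and the median as a dashed line. Pnoc and Pdyn have their highest means in laryngeal neurons (3.02 and 6.52), while Pomc is low in all types.

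The G protein genes through which these receptors act (Gnai1, Gnai2, Gnai3, Gnao1 and Gnaz) were within 2-fold between all pairs of types in 5 of 5 cases, except that 1 was past 2-fold in ACP over laryngeal neurons with totals that hold Rn45s. Their median log2 ratio was 0.28, -0.03 and -0.26 for ACP over ACV, ACP over laryngeal and ACV over laryngeal neurons, beside 0.00, -0.03 and -0.03 for all genes tested. Counts of listed genes past 2-fold moved by over 1.5 times in 13 cases with those totals and in 2 cases with TMM factors, a scaling that discounts the most extreme genes. Gnao1, which encodes the most abundant neuronal G alpha subunit of this class, was read in every neuron, at a mean level of 3.26 in ACP, 2.63 in ACV and 3.54 in laryngeal neurons. Gnaz was read in 92.5%, 92.9% and 96.2% of neurons.

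Of the inwardly rectifying potassium channel genes, 3 of 4 passed the filter, with a median log2 ratio of 0.91, 1.27 and 0.36 over the same pairs. In ACP over ACV 1 gene was at least 2-fold higher in ACP, in ACP over laryngeal neurons 2 were higher in ACP, and in ACV over laryngeal neurons 1 was higher in each type. Over all genes tested the shares were 9.87%, 10.3%, and 10.4% and 14% in the same order. With TMM factors 2 channel genes were higher in ACP than in ACV. Kcnj3, which encodes the GIRK1 subunit, was read in 31 ACP, 35 ACV and 30 laryngeal neurons (58.5%, 35.7% and 57.7%), with a mean level of 0.211, 0.0538 and 0.214. Its log2 ratio was 1.97 for ACP over ACV, -0.02 for ACP over laryngeal and -1.99 for ACV over laryngeal neurons. Reads of both Kcnj3 and Oprm1 were found in 11 ACP, 7 ACV and 5 laryngeal neurons. This is 61.1%, 58.3% and 71.4% of the neurons with Oprm1 in each type. The Kcnj3 shares of the whole types were 58.5%, 35.7% and 57.7%, so in ACP the value lay near the share of the type. Kcnj6 was 1.58 higher on the log2 scale in ACP and 1.52 higher in ACV than in laryngeal neurons. Kcnj9 was 1.27 higher in ACP than in laryngeal neurons. Kcnj5 was read in 1 neuron of each type.

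The calcium channel genes closed by opioid receptors, Cacna1b (N type) and Cacna1a (P/Q type), were within 2-fold between types. Cacna1b had a mean level of 2.07 in ACP, 2.26 in ACV and 2.07 in laryngeal neurons. Of 8 adenylyl cyclase genes past the filter, 1 was higher in ACV than in ACP, 1 higher in laryngeal than in ACP and 3 higher in laryngeal than in ACV neurons. The shares of all genes tested were 8.63%, 12.5% and 14%. No cyclase was past 2-fold the other way. With totals that hold Rn45s, 3 were higher in ACP and 1 in laryngeal neurons, and 1 each in ACV and laryngeal neurons. The median log2 ratio of the cyclases was 0.35, -0.44 and -0.35. Adcy8, a cyclase stimulated by calcium and calmodulin, was read in 32.1% of ACP, 81.6% of ACV and 75.0% of laryngeal neurons, and its log2 ratio was -2.64 for ACP over ACV and -2.11 for ACP over laryngeal neurons. Adcy1 and Adcy2 had the highest mean levels of the list and were not 2-fold apart in any pair. Adcy3 was -1.58 for ACV over laryngeal neurons.

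Among the 5 receptor kinase and arrestin genes analysed, Grk5 was the 1 past 2-fold, with a log2 ratio of 1.72 for ACP over ACV and -2.21 for ACV over laryngeal neurons. Its 304, 293 and 295 reads lay in 14, 14 and 11 neurons. Of all genes tested, 9.87% were at least 2-fold higher in ACP than in ACV and 14% in laryngeal than in ACV neurons. With totals that hold Rn45s, 2 genes of this list were higher in each cardiac type than in laryngeal neurons. Arrb1, the gene of beta-arrestin 1, was read in 73.6%, 77.6% and 63.5% of neurons. Grk2 and Grk3 were not analysed here.

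RGS proteins speed the turning off of G proteins. Of 13 genes, 3 were higher in ACP and 1 in ACV between these types, and 3 were higher in ACP and 1 in laryngeal neurons. Of 12 genes, 1 was higher in ACV and 2 in laryngeal neurons. Over all genes tested the shares were 9.87% and 8.63%, 10.3% and 12.5%, and 10.4% and 14% in the same order. With totals that hold Rn45s the RGS counts were 4 and 1, 4 and 0, and 5 and 2. Rgs8 was read in 69.8% of ACP, 21.4% of ACV and 36.5% of laryngeal neurons, with a log2 ratio of 2.78 for ACP over ACV. Rgs4 was read in most neurons, and its mean level was 2.91 in ACP, 3.30 in ACV and 0.734 in laryngeal neurons. Rgs10 was -1.58 for ACP over ACV and -1.26 for ACP over laryngeal neurons. Rgs6 was -1.79 for ACV over laryngeal neurons. Rgs14 had no read in laryngeal neurons and 349 reads in 6 ACP neurons, and it passed the filter only through ACP. No fold over laryngeal neurons is given for it, since all its ACP reads lay in those 6 neurons. The median log2 ratio of the RGS list was -0.18, -0.06 and 0.28 over the 3 pairs, beside 0.00, -0.03 and -0.03 for all genes tested.

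**Figure D5:**
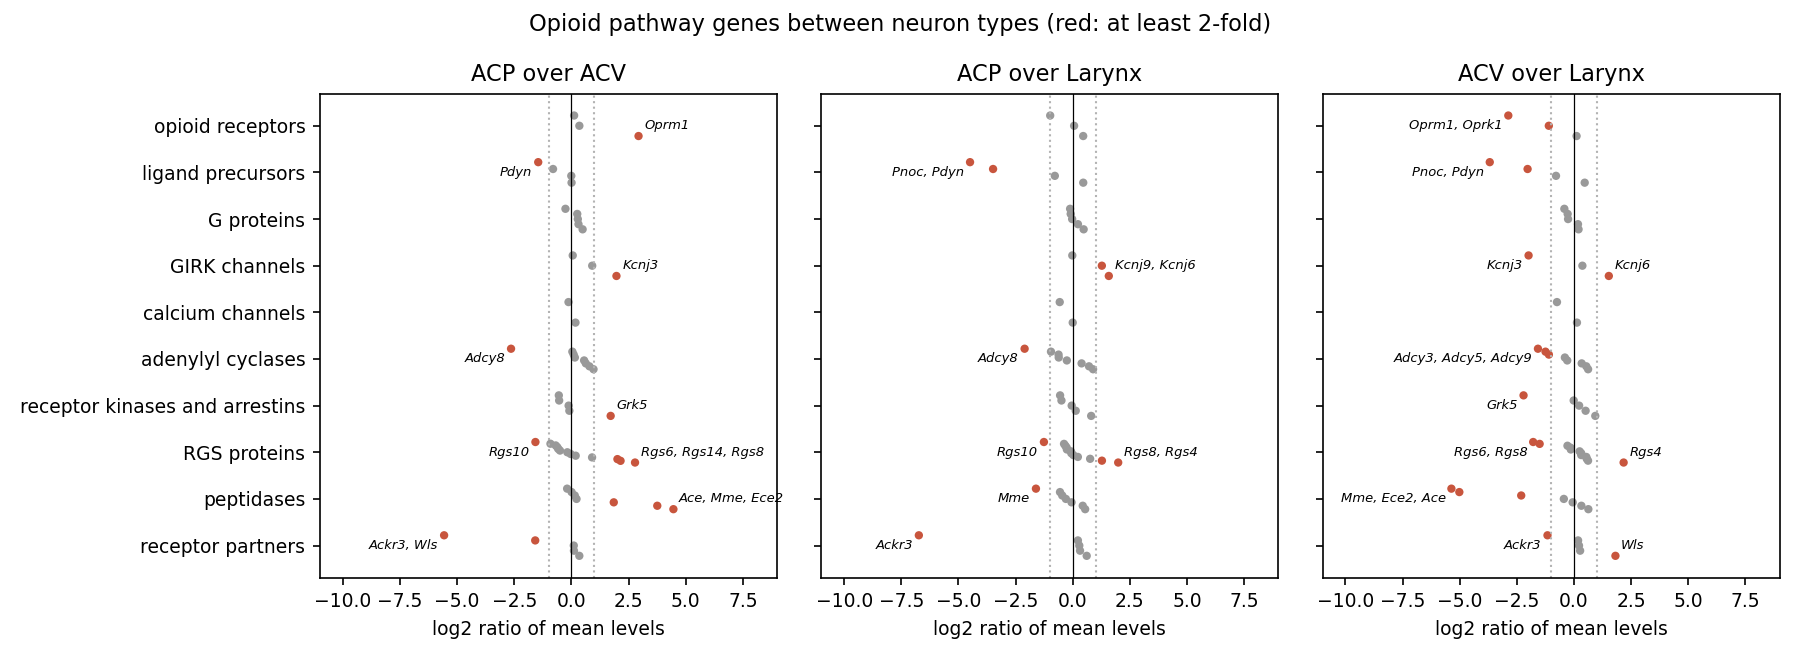
Log2 ratio of mean levels (horizontal axis) for the genes of each list (rows) between ACP and ACV, ACP and laryngeal, and ACV and laryngeal neurons, with 1 point per gene past the filter and red points at least 2-fold apart; Rgs14, at 0 in laryngeal neurons, is drawn only for ACP over ACV. Oprm1 and Kcnj3 lie on the ACP side against ACV (2.94 and 1.97) and on the laryngeal side of ACV over laryngeal neurons (-2.88 and -1.99), while the G proteins and calcium channels stay within 2-fold.

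The genes whose level followed each receptor most closely across all neurons (n = 53, 98 and 52 of the types together) were sought among 12809 genes read in at least 10% of neurons. For Oprm1 the highest Spearman correlations were with Pramef8 (0.38), Thnsl2 (0.37) and Gm7173 (0.35). For Oprk1 they were with Lmo7 (0.36), Il15ra (0.36) and Hivep3 (0.35), and for Oprl1 with Atp1b1 (0.40), Pcmt1 (0.39) and Msmo1 (0.38). Within ACP neurons the 3 values for Oprl1 were 0.14, 0.19 and 0.05. They were 0.54, 0.54 and 0.52 within ACV and 0.40, 0.24 and 0.37 within laryngeal neurons. Within single types the values ran from 0.23 to 0.53 for Oprm1 and from 0.20 to 0.53 for Oprk1. The pooled values are weak correlations of sparse counts, over neurons that differ in depth and share mice and neuron types. Oprl1 itself had a correlation of 0.28 with the counts outside Rn45s, and of 0.39 within ACV neurons. For Oprm1 the correlation with these counts was 0.21, and for Oprk1 it was 0.01. Within ACP neurons it was 0.37 for Oprm1, beside 0.41, 0.40 and 0.23 for Pramef8, Thnsl2 and Gm7173. For Pnoc the closest genes were Timp3 (0.60), Gfra1 (0.55) and Uts2 (0.54). These were 0.26, 0.37 and 0.29 within ACP and 0.28, -0.0076 and 0.02 within ACV neurons. Within laryngeal neurons, where most neurons had Pnoc reads, they were 0.67, 0.59 and 0.61.

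The genes next to the receptor genes on the chromosome had their own patterns. Beside Oprl1, Lkaaear1 was read in 1 ACP neuron and in no other, and Myt1 in 19 ACP, 48 ACV and 24 laryngeal neurons. Beside Oprm1, Rgs17 was read in 94.3%, 87.8% and 82.7% of neurons and Cnksr3 in 4, 8 and 5 neurons. Beside Oprk1, Npbwr1, a receptor gene for neuropeptides B and W, was read in 1, 4 and 4 neurons, and Atp6v1h in 52, 97 and 52 neurons. Oprd1 lies between Epb41 and Ythdf2, and Epb41 was read in 47.2%, 36.7% and 80.8% of neurons.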

How the data were processed

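Counts per gene and neuron were used as the authors deposited them, as whole numbers with no normalization. Per the labels, Smart-seq2 libraries were read as 75 bp pairs and aligned with STAR 2.6.1d to mm10. The counting program, annotation and strand setting are not given in the sources used here. A deposited table of scaled values was not used, as its columns do not sum to a common total. Neuron types were taken from the deposited annotation. Members and gene lists were chosen with earlier results of these data known.

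Counts were divided by each neuron's total outside Rn45s and scaled to 10000, since the share of Rn45s had a median of 34.3% in ACP, 35.8% in ACV and 58.6% in laryngeal neurons. With totals that hold Rn45s, the median log2 ratio of all genes is 0.58 for ACP and 0.52 for ACV over laryngeal neurons. Genes with a read in at least 10% of neurons in one type or the other entered a comparison, and at least 2-fold was the threshold. No test was run, because the mouse of each neuron is not in the labels. Shares carry exact 95% intervals. Thinned shares are expected values under sampling without replacement. Named genes were the receptors and ligands and, from each other list, the 2 with the highest mean and the one furthest past 2-fold in each direction; also the 3 genes most like each member and genes beside or overlapping it. Fold recovery was tested on simulated data. Positions and lengths come from GENCODE vM21 (GRCm38). Tools were Python 3.11.15, numpy 2.4.6, pandas 2.3.3, scipy 1.17.1, and edgeR 4.0.16 in R 4.3.3 for TMM factors only. Alternatives were other totals, TMM, thinning, limits on depth and Apoe, other filters, the mean of natural log values and leaving out the highest neuron of each type. The Apoe limit of 1800 counts and the transcript length were added after seeing the data. A further gene of the motor neuron marker list is not reported here.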

Additional observations from a re-analysis of the deposited data

How the results depend on the processing

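The shares of neurons with reads moved by less than their exact intervals in 46 of 48 alternatives, and at least 5 reads took Oprm1 in ACV to 4.08% and Oprd1 in laryngeal neurons to 0. Oprl1 ratios stayed under 2-fold in every alternative run, and ACV over laryngeal neurons changed sign at up to 900 Apoe counts (-0.12). The Oprm1 log2 ratio of ACP over ACV was 5.57 at up to 900 Apoe counts. Oprm1 in ACP over laryngeal neurons was 0.92 with totals that hold Rn45s (under a median shift of all genes of 0.58), 4.10 at up to 900 Apoe counts and 1.51 without the highest neuron of each type, and in ACV over laryngeal neurons -2.22 (median shift 0.52), -1.47 and -1.76. It changed sign for ACP over laryngeal neurons when thinned (-0.47) or kept to at least 500000 counts (-0.44). Oprk1 in ACP over ACV was 0.93 at up to 900 and 0.91 at up to 1800 Apoe counts. In ACP over laryngeal neurons it was -1.43 when thinned, -1.12 at 500000 counts or more, 1.22, turned, at up to 900 Apoe counts and -1.02 without the highest neurons, and in ACV over laryngeal neurons -0.73 with Rn45s, -1.69 at up to 1800 Apoe counts and, turned, 0.29 at up to 900. The cause was not tested. Genes at least 2-fold higher numbered, with no filter, 3180 in ACP and 3783 in ACV, 3429 in ACP and 4094 in laryngeal, and 3897 in ACV and 4096 in laryngeal neurons. With reads required in 25% of neurons they numbered 789, 537, 817, 1016, 764 and 1282 in the same order. Totals with Rn45s gave 3399 in ACP and 695 in laryngeal, and 3281 in ACV and 955 in laryngeal neurons. The Spearman correlation of Pnoc and Gfra1 was -0.0076 within ACV neurons. No paired analysis was possible because neurons carry no replicate numbers shared between types. Low depth in laryngeal neurons limits what a neuron without a read shows.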

Other observations

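Genes of peptidases and of proteins that bind or sort the receptors were also listed. Of 7 peptidase genes past the filter, 3 were at least 2-fold higher in ACP than in ACV, 1 was higher in laryngeal than in ACP, and 3 were higher in laryngeal than in ACV neurons, beside 9.87%, 12.5% and 14% of all genes tested. Ece2, an endothelin-converting enzyme that also cleaves opioid peptides, was read in 22 ACP, 28 ACV and 30 laryngeal neurons, but its mean level was 0.385, 0.0175 and 0.567, a log2 ratio of 4.46 for ACP over ACV. Mme, the gene of neprilysin, which degrades enkephalins, was read in 12 ACP, 6 ACV and 23 laryngeal neurons, with log2 ratios of -1.61 for ACP and -5.37 for ACV over laryngeal neurons. Dpp3 and Thop1 had the highest mean levels of the list and were not 2-fold apart in any pair.

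Of 5 receptor partner genes, 2 were higher in ACV than in ACP, beside 8.63% of all genes tested, and Ackr3, an atypical chemokine receptor that takes up opioid peptides, was lowest in ACP. Ackr3 was read in 3 ACP, 11 ACV and 23 laryngeal neurons with 8, 456 and 524 reads, and its log2 ratio was -5.57 for ACP over ACV and -6.73 for ACP over laryngeal neurons. Wls, the gene of a secretion factor for Wnt proteins that binds the mu receptor, was read in 32.1% of ACP, 68.4% of ACV and 40.4% of laryngeal neurons. Gprasp1 and Gprasp2, which encode sorting proteins of G protein-coupled receptors, were read in nearly every neuron, with mean levels of 7.49, 6.94 and 6.14 for Gprasp1.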
